A study of Rattus norvegicus with 14 samples.

Results

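The genes described here encode the subunits of the mitochondrial respiratory chain and of ATP synthase. Members were the gene names on a rat oligonucleotide array that begin with the symbols of complex I (Nduf), complex II (Sdha to Sdhd), complex III (Uqcr), complex IV (Cox4 to Cox8) and complex V (Atp5), together with cytochrome c (Cycs). They came to 78 of 35522 gene names, with 100 of 41012 probes. Their choice used no measured value, and 77 of them, of 24856 gene names in all, were tested because 1 or more lines gave a signal well above background on its A and B arrays. The one left out, Cox6c1, is listed in RefSeq as a pseudogene of Cox6c. Of the 78 names, 32 belonged to complex I, 4 to complex II, 6 to complex III, 16 to complex IV, 15 to complex V and 1 was cytochrome c. The other 4 match the symbol pattern but do not encode subunits of these complexes (Cox4nb, now Emc8, of the endoplasmic reticulum membrane complex, the assembly factors Atp5sl, now Dmac2, and Cox7a2l, and Atp5s, now Dmac2l). RefSeq also lists Atp5hl1, named after a complex V subunit, as a pseudogene. The subunits encoded by mitochondrial DNA are outside the naming rule and were not analysed here.

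The series measured total RNA of 7 rat cell lines on 14 one-colour arrays, A and B for each line. The blastocyst lines were Fi1 (Fischer, male), Fi2 (Fischer, female) and Wk8 (Wistar-Kyoto, female). The bone marrow lines were CL19 (Fischer, female), 3C3 (Fischer, male) and RMAPC-1 (Fischer, male). These 6 lines, called stem cell lines below, stand in a series whose title concerns cells with features of the nascent hypoblast obtained under MAPC (multipotent adult progenitor cell) culture, and RClone-2 (Fischer, male) was the mesenchymal control. The mesenchymal group is 1 line, the blastocyst group mixes strains, and the labels do not say whether arrays A and B came from separate cultures. P-values therefore measure the spread between lines, whose small number limits the precision.

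The 10 hypoblast markers examined (among them Gata4, Gata6, Sox17 and Foxa2) gave signal over background on each of the 12 arrays of stem cell lines. All but Sox7 were above background on both RClone-2 arrays too, at log2 levels lower by 1.34 or more than the mean of the stem cell lines. For Dab2 the single line Wk8 (0.81) lay below RClone-2 (0.87). Of 10 mesenchymal markers, 9 were above background on both RClone-2 arrays, the exception being Nt5e. On the stem cell arrays Col1a1, Col1a2, Cd44, Eng and Vim were above background on all 12, Col3a1, Pdgfrb and Nt5e on 1, and Col5a2 and Thy1 on 0. All 10 mesenchymal markers had lower levels in the stem cell lines than in RClone-2. The leukocyte markers Itgam and Cd3e and the globin Hbb were above background on 0 of 14 arrays, whereas Cd68 was above it on all 14 and Ptprc on 5 of 12 stem cell arrays. On each array 61.8% to 68.1% of spots were well above background and none was saturated. The 75th percentile of signal, against which every level below is given, ranged from 745.7 to 891.5 for blastocyst lines, from 558.9 to 660.1 for bone marrow lines, and was 599.0 and 630.7 for RClone-2. In such bulk RNA, fewer cells of a type and less RNA per cell cannot be told apart.

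The respiratory chain moves electrons from NADH (complex I) and succinate (complex II) through complex III and cytochrome c to oxygen (complex IV), and complexes I, III and IV pump protons across the inner mitochondrial membrane. ATP synthase lets the protons flow back through a membrane rotor and makes ATP. Nuclear transcription factors such as NRF1, the ETS factor GABP and YY1 are known regulators of many of these genes, and complex IV and the rotor ring of ATP synthase have isoforms that differ between tissues.

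Promoters of the members were read for letters of these factors, and whether a match goes with a difference between lines was not tested. RefSeq promoters of assembly GRCr8, from 250 bases before to 50 bases after a gene start, were found for 66 members. The 8-letter NRF1 core CGCATGCG, read on both strands, occurred in 8 of these 66 (12.1%) and in 1.86% of 27457 genes with a promoter, or 2.29% of the 19005 that code for protein, as all 66 members do. It was in 5 of 13 complex V promoters. The ETS letters CCGGAAGT occurred in 8 of 66 (12.1%) against 4.2% of all and 5.12% of protein-coding genes, and the YY1 letters AAGATGGCG in 9 of 66 (13.6%) against 1.99% and 2.33%. The YY1 letters were in 7 of 28 complex I promoters. Each matches letters and is a description of the sequence. The following promoters belong to 4 members described below as lower in the blastocyst lines, with matches in capitals. Ndufs3 and Atp5g1, also lower, had no match, while Atp5a1, Ndufs1, Atp5l and Atp5o, not called lower, had a match.
Atp5j (now Atp5pf), chr11:37375052-37375351, minus strand, NRF1 and YY1: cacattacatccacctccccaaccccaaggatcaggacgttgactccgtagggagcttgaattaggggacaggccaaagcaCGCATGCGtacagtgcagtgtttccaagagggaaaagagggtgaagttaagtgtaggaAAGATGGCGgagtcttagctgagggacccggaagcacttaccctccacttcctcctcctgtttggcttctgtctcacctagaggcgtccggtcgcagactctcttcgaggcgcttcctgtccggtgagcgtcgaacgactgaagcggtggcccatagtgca
Atp5i (now Atp5me), chr14:1464610-1464909, plus strand, NRF1: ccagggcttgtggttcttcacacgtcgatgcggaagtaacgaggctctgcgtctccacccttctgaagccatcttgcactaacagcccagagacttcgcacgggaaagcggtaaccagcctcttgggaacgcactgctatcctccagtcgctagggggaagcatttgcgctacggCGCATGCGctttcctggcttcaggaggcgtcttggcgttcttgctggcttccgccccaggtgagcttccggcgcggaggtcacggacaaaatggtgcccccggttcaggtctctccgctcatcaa
Ndufb7, chr19:41477242-41477541, minus strand, ETS: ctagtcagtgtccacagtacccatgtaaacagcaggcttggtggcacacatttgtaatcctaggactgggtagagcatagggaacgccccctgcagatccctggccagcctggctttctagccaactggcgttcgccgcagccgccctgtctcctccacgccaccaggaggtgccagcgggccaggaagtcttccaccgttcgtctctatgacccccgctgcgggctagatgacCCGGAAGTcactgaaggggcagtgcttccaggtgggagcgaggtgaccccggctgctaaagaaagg
Cycs, chr4:80984718-80985017, minus strand, NRF1: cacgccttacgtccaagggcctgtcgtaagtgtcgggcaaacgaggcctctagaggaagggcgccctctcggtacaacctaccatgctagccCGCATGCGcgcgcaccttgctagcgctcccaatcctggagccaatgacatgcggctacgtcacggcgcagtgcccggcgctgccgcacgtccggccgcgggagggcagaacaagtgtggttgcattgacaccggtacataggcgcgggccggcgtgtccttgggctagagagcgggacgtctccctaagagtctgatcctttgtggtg

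By the median range, the members varied less across the stem cell lines than all genes tested. The range of the 6 stem cell line means was below 1 on the log2 scale for 70 of 77 members. Its median was 0.58 over the members and 0.91 over all genes tested. The members were also brighter, with a median level in Fi1 of 4.89 against -1.93 for all genes. Genes of like brightness were not compared. Arrays A and B of a line differed by a median of 0.32 at the line of largest difference, which was RMAPC-1 for 40 of 77 members. All but 3 of the tested members, Uqcrq, Cox6b2 and Cox8c, were above background on all 14 arrays.

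The first comparison asked whether lines from blastocysts and from bone marrow differ. Relative to the 75th percentile of the array, 37 of 77 members were lower in the blastocyst lines and 1, Uqcrq, was higher, in limma with Benjamini-Hochberg adjustment over all 24856 genes at a threshold of 0.05. Of all genes, 24.6% were lower and 8.25% higher. Without the pseudogene Atp5hl1 the count was 36 of 76. The median difference of blastocyst minus bone marrow lines was -0.37 for the members and -0.22 for all genes. A difference below 0 was seen for 68 of 77 members and for 16119 of all 24856 genes. Line means did not overlap, with the blastocyst lines lower, for 55 of 77 members, against 38.1% of all genes. The changes were small, and Uqcrq alone had a fitted difference of more than 2-fold. That gene was near background, so its fitted difference is no measure of size, as described below. The direction depended on how arrays were put on one scale, because the median member difference without scaling was 0.11, with 9 members higher (11.7%, all genes 23.7%) and 0 lower (all genes 4.98%).

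**Figure D1:**
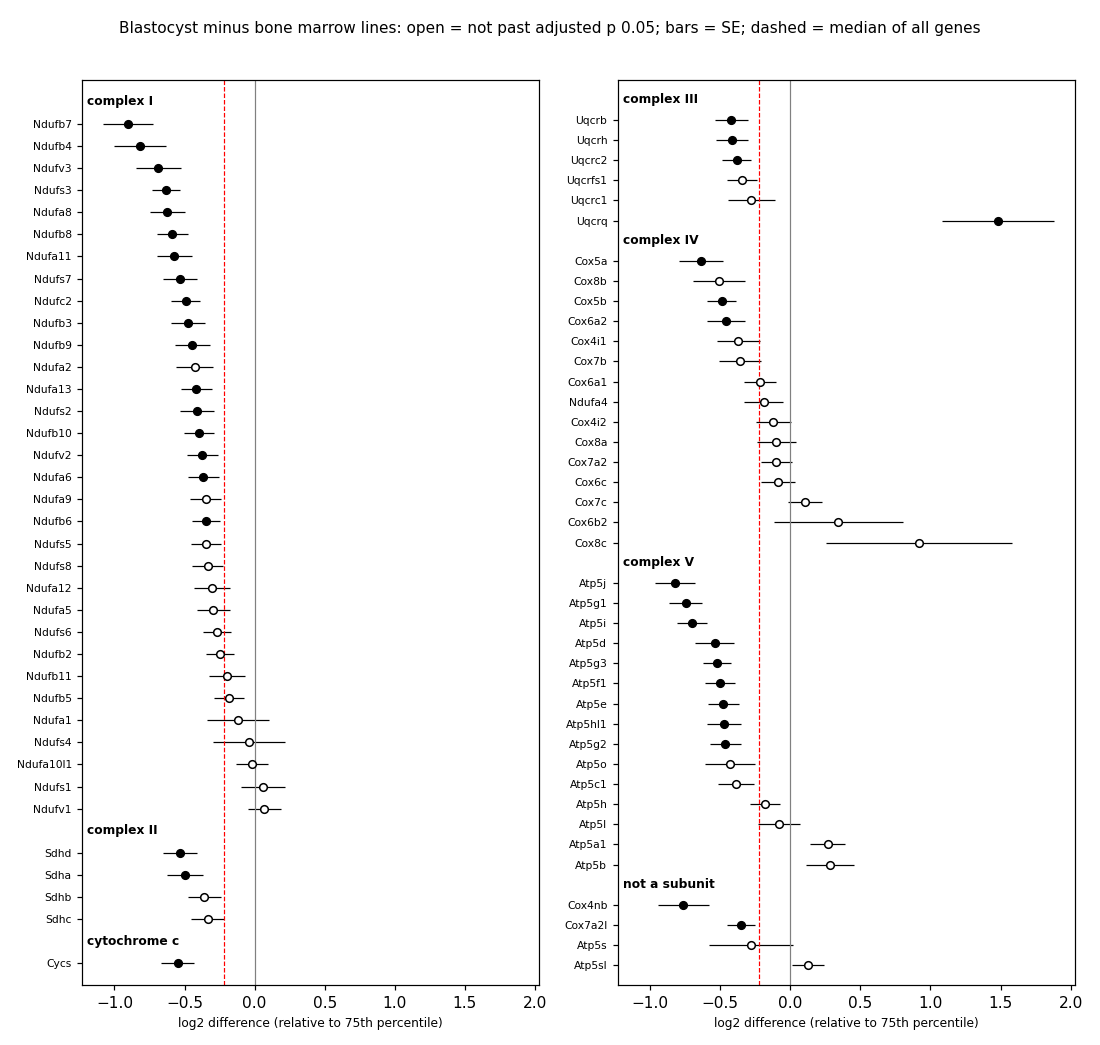
Blastocyst minus bone marrow log2 difference of each of the 77 tested members, grouped by complex, on signals relative to the 75th percentile of the array. Points are estimates, bars are SE, filled points passed an adjusted p of 0.05, and the dashed line is the median of all genes. Most members lie to the left of 0, and Uqcrq, which was near background, lies far to the right.

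Complex I oxidises NADH and has a peripheral arm and a membrane arm. Of its 32 tested members, 17 were lower in the blastocyst lines and none was higher, with a median difference of -0.37. Ndufb7, an accessory subunit of the membrane arm, had levels of 5.04, 5.05 and 5.07 in Fi1, Fi2 and Wk8, 5.66, 6.29 and 5.92 in CL19, 3C3 and RMAPC-1, and 5.19 in RClone-2. The 3 blastocyst lines lay close together below all bone marrow lines, and the difference was -0.90 ± 0.18 (SE, 3 lines against 3), or 1.87-fold lower, with an adjusted p of 0.0168 in limma. Ndufb4, also in the membrane arm, had levels of 6.31, 6.39 and 6.27 in the blastocyst lines, 6.82, 7.48 and 7.11 in the bone marrow lines and 7.26 in RClone-2. It was 1.76-fold lower in the blastocyst lines (-0.82 ± 0.18, limma adjusted p = 0.0233), with RClone-2 among the bone marrow lines.

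Ndufs3, a core subunit of the peripheral arm, had levels of 4.10, 4.20 and 4.06 in the blastocyst lines and 4.74, 4.77 and 4.73 in the bone marrow lines, beside 4.61 in RClone-2. The difference of -0.63 ± 0.10 (limma adjusted p = 0.011) was far larger than the spread within either origin. Ndufv3, an accessory subunit beside the NADH-binding part, was 1.61-fold lower (-0.69 ± 0.16, limma adjusted p = 0.0265). Ndufb8 (-0.59) and Ndufa8 (-0.62) were lower as well. The core subunits Ndufs1 and Ndufv1 had differences of 0.06 and 0.07 that did not pass.

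Complex II, succinate dehydrogenase, is also an enzyme of the citrate cycle. All 4 members had lower means in the blastocyst lines and 2 passed, with a median difference of -0.43. Sdha, the flavoprotein, had levels of 6.0, 6.24 and 5.90 against 6.48, 6.58 and 6.56 (-0.49 ± 0.13, limma adjusted p = 0.0337). The membrane anchor Sdhd had levels of 5.17, 5.16 and 4.97 against 5.56, 5.76 and 5.58 (-0.54 ± 0.12, limma adjusted p = 0.0235). The iron-sulfur subunit Sdhb (-0.36) and the anchor Sdhc (-0.34) did not pass, although the line means of both did not overlap.

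Complex III and cytochrome c carry electrons on to complex IV. Of the 6 complex III members, Uqcrb (-0.42), Uqcrc2 (-0.38) and Uqcrh (-0.41) were lower in the blastocyst lines. The Rieske iron-sulfur protein Uqcrfs1 (-0.34) and the core protein Uqcrc1 (-0.28) did not pass. Other RefSeq-strand probes of Uqcrb above background gave -0.35 and -0.19 and did not pass in a limma fit of single probes. The Uqcrb call was also lost when its probes were averaged. Uqcrq, a small subunit, was near background, with levels of -5.10, -6.04 and -4.81 in the blastocyst lines and -6.91, -7.24 and -6.23 in the bone marrow lines. It was above background on 6 of 6 blastocyst, 2 of 6 bone marrow and 0 of 2 mesenchymal arrays. Its fitted difference of 1.48 ± 0.40 (limma adjusted p = 0.0367) is no measure of size, since most bone marrow arrays gave no signal above background and the gene was tested only because it was bright in some lines. With another background correction, normexp, the difference was 0.25 (limma adjusted p = 0.687).

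Cycs, cytochrome c, had levels of 5.99, 6.07 and 5.90 in the blastocyst lines, 6.51, 6.66 and 6.44 in the bone marrow lines and 5.69 in RClone-2. The blastocyst lines thus lay between RClone-2 and the bone marrow lines. The difference between origins was -0.55 ± 0.12 (limma adjusted p = 0.0205), and all 3 probes of the gene gave a difference below 0.

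Complex IV, cytochrome c oxidase, had 3 lower members of 15 tested and a median difference of -0.19, close to the -0.22 of all genes. The 3 were Cox5a (-0.64 ± 0.16), Cox5b (-0.49 ± 0.10) and Cox6a2 (-0.46), the last being the heart and muscle isoform of subunit 6a. Cox6a2 had levels of -2.62, -2.79 and -2.41 against -2.17, -2.07 and -2.19, beside -1.86 in RClone-2. Its partner Cox6a1, the isoform of most tissues, had levels of 8.01, 8.04 and 8.18 in the blastocyst lines, 8.18, 8.38 and 8.32 in the bone marrow lines and 8.24 in RClone-2, and its difference of -0.22 did not pass. The isoforms were read by different probes, so their levels are not compared with each other.

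The remaining isoform genes of complex IV did not pass between origins. Cox4i1, the common form of subunit 4, had levels of 4.14, 4.03 and 4.31 in the blastocyst lines, 4.35, 4.75 and 4.49 in the bone marrow lines and 4.51 in RClone-2. Cox4i2, known from lung and as a hypoxia-responsive form, had levels of -0.04, -0.17 and 0.16, then 0.11, 0.09 and 0.10, then -0.27. Neither gene passed against RClone-2.

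Cox7a2 had levels of 5.24, 5.21 and 5.37 in the blastocyst lines, 5.45, 5.34 and 5.34 in the bone marrow lines and 5.14 in RClone-2. Cox7b had levels of 3.81, 3.94 and 4.27, then 4.34, 4.39 and 4.36, then 4.06. Cox8a, the common form of subunit 8, had levels of 6.09, 5.97 and 6.33, then 6.18, 6.34 and 6.17, then 6.11. Ndufa4, first named as a complex I protein and since placed in complex IV, had levels of 6.17, 6.15 and 6.54, then 6.47, 6.50 and 6.47, then 6.02.

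Cox8c, a testis form, was above background on 2 of 14 arrays, both of Wk8, with line means of -7.72, -7.88 and -5.57 in the blastocyst lines, -8.33, -8.21 and -7.39 in the bone marrow lines and -8.54 in RClone-2. Levels near background have no fold, and the difference did not pass. The difference of Cox6c was -0.09 and did not pass. The probe of its pseudogene Cox6c1 was above background on 2 of 14 arrays.

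Complex V had a median difference of -0.47, with 9 of 15 members lower in the blastocyst lines and none higher, or 8 of 14 without the pseudogene Atp5hl1. Atp5j, coupling factor 6 of the stalk, had levels of 5.47, 5.49 and 5.41 in the blastocyst lines, 6.14, 6.53 and 6.15 in the bone marrow lines and 5.91 in RClone-2. It was 1.77-fold lower (-0.82 ± 0.14, limma adjusted p = 0.0126), with no overlap and with RClone-2 between the origins. Atp5i, subunit e, which takes part in pairing the enzyme into dimers, had levels of 7.60, 7.59 and 7.50 against 8.18, 8.34 and 8.28, beside 7.81 in RClone-2. It was 1.63-fold lower (-0.70 ± 0.11, limma adjusted p = 0.00959).

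Atp5g1, Atp5g2 and Atp5g3 encode the same mature subunit c of the rotor ring. Atp5g1 had levels of 5.28, 5.35 and 5.48 in the blastocyst lines, 6.0, 6.21 and 6.13 in the bone marrow lines and 5.94 in RClone-2 (-0.75 ± 0.12, limma adjusted p = 0.0106). Atp5g2 had levels of 6.47, 6.48 and 6.65, then 6.95, 7.07 and 6.99, then 6.89 (-0.46 ± 0.11, limma adjusted p = 0.0273). Atp5g3 had levels of 6.39, 6.46 and 6.48, then 6.99, 6.95 and 6.96, then 6.47 (-0.52 ± 0.10, limma adjusted p = 0.0155). All 3 genes were lower in the blastocyst lines with no overlap, and RClone-2 lay near the bone marrow lines for Atp5g1 and Atp5g2 but among the blastocyst lines for Atp5g3.

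The catalytic head of ATP synthase is made of the alpha and beta subunits, Atp5a1 and Atp5b. Neither was lower. Atp5a1 had levels of 5.95, 6.05 and 6.13 in the blastocyst lines and 5.90, 5.80 and 5.63 in the bone marrow lines, a difference of 0.27 that did not pass (limma adjusted p = 0.142). Atp5b had levels of 5.08, 5.39 and 4.89 against 4.97, 4.66 and 4.88 (0.28, limma adjusted p = 0.247). The central stalk subunit Atp5c1 had a difference of -0.39 that did not pass, and the central stalk subunit Atp5d was lower (-0.54 ± 0.14, limma adjusted p = 0.0325). Among the names that are not subunits, Cox4nb had levels of 3.79, 3.89 and 3.80 against 4.29, 4.93 and 4.55 (-0.76 ± 0.18, limma adjusted p = 0.0273).

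**Figure D2:**
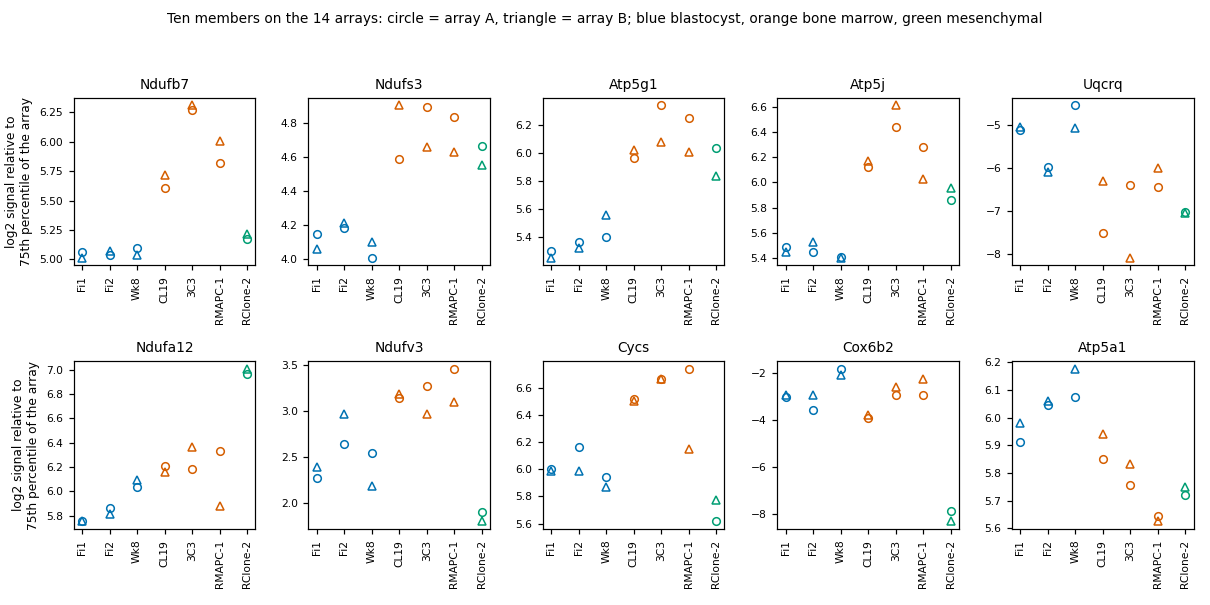
Log2 signal relative to the 75th percentile of the array for 10 members on all 14 arrays, circles for array A and triangles for array B, with a separate vertical axis for each gene. Ndufb7, Ndufs3, Atp5g1 and Atp5j are lower on every blastocyst array than on every bone marrow array, Cox6b2 drops in RClone-2, and Ndufa12 peaks there.

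The counts moved with the scale. Under median centring 9 members were lower (11.7%, all genes 14.3%) and 1 was higher. Under quantile normalization 6 were lower (7.79%, all genes 14.8%) and 2 higher, and under spike-in scaling 54 were lower (70.1%, all genes 35.2%) and 1 higher. Members were thus called lower more often than all genes on the main and spike-in scales, and less often under median centring and quantile normalization. Moving every array by a constant leaves the order of genes alone, and 55 of 77 members lay below the median of all genes on each such scale. Quantile normalization brought the median of the members to -0.11, beside -0.09 for all genes, with 43 of 77 members below it. Of the 37 members called lower, 21 kept a difference below 0 under all 7 scalings, and 4 (Ndufb7, Ndufs3, Atp5g1 and Atp5j) passed under every scaling except none.

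Leaving out 1 line changed the count of lower members from 37 with all lines. It became 4 without Fi1 (5.19%, all genes 11.4%), 16 without Fi2 (20.8%, all genes 17.2%) and 29 without Wk8 (38.2%, all genes 19.4%). It was 18 without CL19 (23.4%, all genes 16.7%), 5 without 3C3 (6.49%, all genes 9.4%) and 4 without RMAPC-1 (5.19%, all genes 9.19%). Without Fi1, 3C3 or RMAPC-1, members were thus called lower less often than all genes. Blastocyst lines shared 2 of 4 slides with CL19 and none with 3C3, RMAPC-1 or RClone-2. On those shared slides the 3 blastocyst lines against CL19 gave a median member difference of -0.38 with 70 of 77 below 0. The median of all genes there was -0.20, and 53 of 77 members lay below it. There CL19 alone stood for bone marrow, 0 members and 0 of all genes passed in limma, and 11 members (14.3%) had an unadjusted p under 0.05, against 21.8% of all genes. When the slide pair entered the fit, 0 members and 0 of all genes passed, and 18 members (23.4%) had an unadjusted p under 0.05, against 26.2% of all genes.

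**Figure D3:**
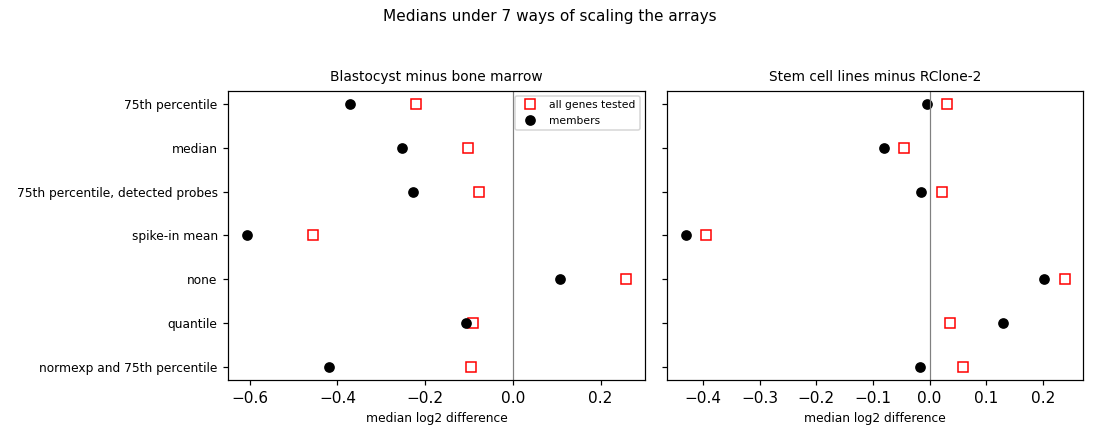
Median log2 difference of the members (filled circles) and of all genes tested (open squares) under 7 ways of putting the arrays on one scale, for blastocyst minus bone marrow lines on the left and stem cell lines minus RClone-2 on the right. On the left the members lie below all genes under each constant shift (-0.37 against -0.22 for the 75th percentile) and nearly on them under quantile normalization (-0.11 against -0.09).

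Genes that work beside the respiratory chain were described from lists chosen with earlier results of these data known. Between origins, 7 of 18 tested regulators of mitochondrial biogenesis and DNA expression were lower in the blastocyst lines and 1 was higher. The largest differences included Esrra, a nuclear receptor (-0.71 ± 0.11, limma adjusted p = 0.00939), and Ssbp1, which binds mitochondrial DNA (-0.66 ± 0.10, limma adjusted p = 0.00944). Mitochondrial ribosomal proteins were lower in 33 of 66 with a median of -0.44, led by Mrpl43 (-1.72 ± 0.40). Names beginning Rpl or Rps, which hold the cytosolic ribosomal proteins but also the S6 kinases, were lower in 56 of 81 and higher in 1, with a median of -0.46. Without scaling the medians of both lists were 0.04 and 0.02, and under quantile normalization -0.23 and -0.02.

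Of the assembly factors, 3 of 8 for complex I and 4 of 16 in the list for the other complexes were lower in the blastocyst lines. None was higher, beside the 24.6% of all genes called lower. The list for the other complexes also names cytochrome c1, a complex III subunit outside the naming rule. Under median centring 0 of both lists passed, and without scaling 1 and 3 were higher and 0 lower. The genes called included Ndufaf4 (-0.55 ± 0.14) and Ndufaf3 (-0.52 ± 0.12) for complex I and Atpaf1 (-0.52 ± 0.12) for ATP synthase. Of 19 tested genes of the citrate cycle and pyruvate dehydrogenase 4 were lower, led by the kinase Pdk3 (-0.59 ± 0.15). Among 22 genes of glycolysis and lactate 2 were lower and 2 higher. Ldhb, the lactate dehydrogenase subunit common in heart, was higher in the blastocyst lines by 2.37 ± 0.27 (limma adjusted p = 0.00561), and Slc2a3, a glucose transporter, differed by -1.54 ± 0.42.

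Fatty acid oxidation had 2 of 16 genes in each direction, Acadvl (1.07 ± 0.18) and Cpt1a (0.55 ± 0.15) higher and Etfb (-0.75 ± 0.14) and Etfa (-0.56 ± 0.13) lower. Without scaling 9 were higher and 0 lower. Of 10 carriers, porins and uncouplers 3 were lower, among them the carrier Slc25a27 (-2.05 ± 0.61) and the outer membrane porin Vdac3 (-0.62 ± 0.17). Of 8 genes of peroxide and superoxide defence 1 was lower, Glrx2 (-0.49 ± 0.12).

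The second comparison asked how the stem cell lines differ from the mesenchymal control. Of 77 members, 4 rose above RClone-2 and 5 fell below it, 11.7% in all, against 24.8% and 22.4% of all genes. Every stem cell line lay above RClone-2 for 12 members (34.5% of all genes) and below it for 13 (30% of all genes). The median difference was -0.01 for the members and 0.03 for all genes. The spread of the single mesenchymal line was taken from the stem cell lines. Under each scaling a smaller share of members than of all genes was called in each direction. The split was 12 higher and 1 lower without scaling, 8 and 4 under quantile normalization, 2 and 7 under median centring and 1 and 20 under spike-in scaling, a scale on which the median of all genes moved to -0.39.

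**Figure D4:**
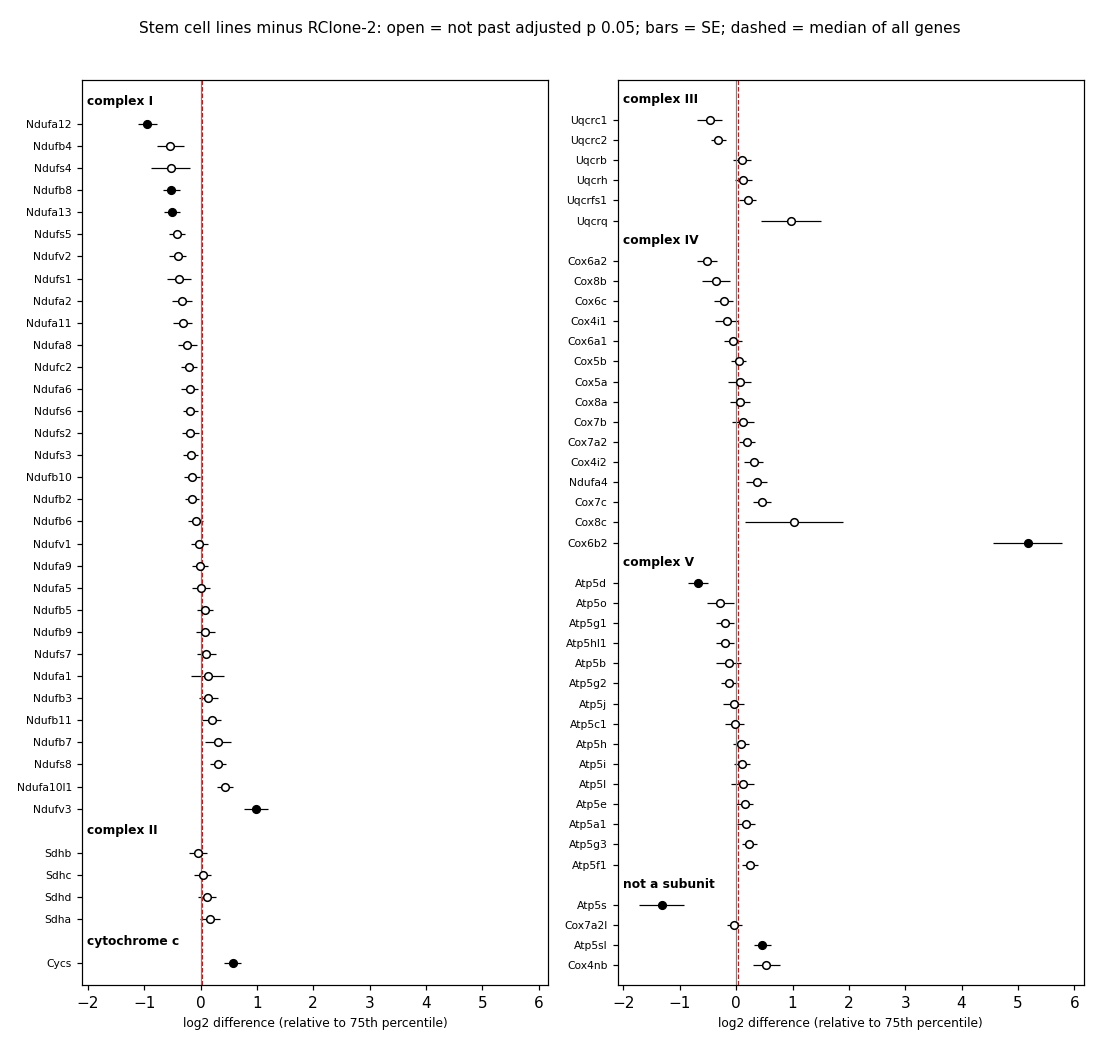
Stem cell lines minus RClone-2, log2 difference of each of the 77 tested members grouped by complex, on signals relative to the 75th percentile of the array. Points are estimates, bars are SE, filled points passed an adjusted p of 0.05, and the dashed line is the median of all genes. Cox6b2, which was not above background in RClone-2, stands apart at 5.18, and most members lie near 0.

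Cox6b2, known as the testis form of complex IV subunit 6b, had the largest fitted difference from RClone-2 among the members on the 75th percentile scale. It had levels of -3.00, -3.25 and -1.97 in the blastocyst lines and -3.86, -2.78 and -2.61 in the bone marrow lines, above background on 12 of 12 arrays. In RClone-2 it was not well above background on either array, with a measured mean of -8.09. It was at least 10.7-fold higher in the stem cell lines, taking the lowest signal called above background as the limit for RClone-2. The limma adjusted p of 0.0011 belongs to the fitted difference of 5.18 and is no support for this bound. That fit used the RClone-2 signals that were not above background. Cox6b2 entered the test only through the stem cell lines, where it was bright. With normexp correction the log2 difference was 1.22, so the bound holds only for the main processing. Between blastocyst and bone marrow lines the difference of 0.34 ± 0.46 did not pass. The array has no probe named for the common form Cox6b1. The probe that measured the gene, which spans chr1:67810813-67811438 on the plus strand of rn4, read as follows.
Cox6b2 probe: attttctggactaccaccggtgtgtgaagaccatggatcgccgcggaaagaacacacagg

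The other members that passed differed by less. Ndufa12, an accessory subunit of complex I, had levels of 5.76, 5.84 and 6.07 in the blastocyst lines, 6.19, 6.27 and 6.11 in the bone marrow lines and 6.99 in RClone-2. It was 1.93-fold lower in the stem cell lines (-0.95 ± 0.17, limma adjusted p = 0.00571), with all 6 lines below RClone-2, and passed under all 7 scalings. Cox6b2 passed under all 7 as well, but against a line in which it was not above background. On the slides that RClone-2 shared with 3C3 and RMAPC-1, where 2 members were higher and 1 lower, Ndufa12 had an adjusted p of 0.0604 in limma. Ndufv3 had levels of 2.33, 2.81 and 2.37, then 3.17, 3.12 and 3.28, then 1.86. It was 1.99-fold higher (0.99 ± 0.21, limma adjusted p = 0.0117), and did not pass under spike-in scaling in limma (0.57, adjusted p = 0.11). Ndufv3 was thus highest in the bone marrow lines and lowest in RClone-2.

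Cycs was 1.48-fold higher in the stem cell lines (0.57 ± 0.16, limma adjusted p = 0.0265) and did not pass in 11 of 25 alternatives, among them normexp, median centring, spike-in scaling and leaving out Fi1. Atp5d was 1.6-fold lower (-0.68 ± 0.18, limma adjusted p = 0.0254), with levels of 4.40, 4.68 and 4.73, then 5.07, 5.26 and 5.10, then 5.55, and did not pass without RMAPC-1. Atp5s had levels of -1.22, -1.18 and -0.43, then -1.13, -0.43 and -0.43, then 0.52 (-1.32 ± 0.40, limma adjusted p = 0.0362). It did not pass without Fi1, Fi2, 3C3 or RMAPC-1. All 6 stem cell lines lay below RClone-2 for Atp5d and for Atp5s.

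Ndufb8 had levels of 6.77, 6.89 and 6.73, then 7.28, 7.44 and 7.44, then 7.61 (-0.52 ± 0.15, limma adjusted p = 0.0319). Ndufa13, also called Grim19, had levels of 5.20, 5.31 and 5.40, then 5.74, 5.65 and 5.77, then 6.02 (-0.51 ± 0.15, limma adjusted p = 0.0333). Atp5sl had levels of 0.45, 0.44 and 0.51, then 0.47, 0.33 and 0.22, then -0.06 (0.46 ± 0.15, limma adjusted p = 0.0474). These calls were close to the threshold: Ndufb8 did not pass without Fi1, CL19, 3C3 or RMAPC-1, Ndufa13 without Fi1, Fi2, CL19, 3C3 or RMAPC-1, and Atp5sl without any 1 of the 6 stem cell lines.

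RClone-2 lay between the origins for 18 of 77 members, with every blastocyst line below it and every bone marrow line above it, against 8.03% of all genes. The reverse order occurred in 0 of 77 and in 1.18% of all genes. All 3 of Sdhb, Sdhc and Sdhd were among the 18, as were Atp5j, Atp5i and Ndufb7, and 13 of the 18 passed between origins.

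The lists of other genes were set beside the 47.2% of all genes called in either direction. Of the biogenesis list (61.1% called), 9 of 18 were higher than in RClone-2 and 2 lower, or 3 and 3 under spike-in scaling. Polg, the mitochondrial DNA polymerase, was higher by 2.26 ± 0.15 (limma adjusted p = 9.85e-05), the coactivator Pprc1 by 1.67 ± 0.18 and Nrf1 by 1.19 ± 0.15. The coactivator Ppargc1b was above background on 2 of 2 RClone-2 and 0 of 12 stem cell arrays. On the main processing, for which alone the bound was set, this puts it at least 3.05-fold lower in the latter. It entered the test only through RClone-2, where its mean level was -4.63.

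Fatty acid oxidation (75% called) had 10 of 16 genes lower than in RClone-2 and 2 higher. Cpt1a, which admits fatty acids to the mitochondrion, differed by -3.75 ± 0.19 (limma adjusted p = 3.53e-05), Hadha, of the trifunctional protein, by -1.91 ± 0.15 and Hadh by 2.01 ± 0.33. Glycolysis and lactate had 7 genes higher and 6 lower of 22, including the monocarboxylate carrier Slc16a3 (9.78 ± 0.29) and the enolase Eno2 (-4.24 ± 0.30). Of 8 genes of peroxide and superoxide defence 4 were lower, led by Prdx5 (-2.47 ± 0.15).

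Of the remaining lists, 14 of 66 mitochondrial ribosomal proteins (34.8% called in all) were higher and 9 lower, or 0 and 13 under spike-in scaling, and 5 of 81 names beginning Rpl or Rps were higher and 1 lower. The 6 were the ribosomal proteins Rpl22, Rpl36al and Rpl10l (5.61 ± 0.15) and the S6 kinases Rps6ka1 (4.61 ± 0.16), Rps6ka2 (2.83 ± 0.29) and Rps6ka3 (-1.07 ± 0.18). The citrate cycle had 1 gene higher, the kinase Pdk3 (2.33 ± 0.20), and 3 lower of 19. Complex I assembly had 2 of 8 lower, with Nubpl, which delivers iron-sulfur clusters, at -3.55 ± 0.58. The list for assembly of the other complexes and cytochrome c1 had Lrpprc higher (0.84 ± 0.20) and Bcs1l lower (-0.44 ± 0.14) of 16. Carriers, porins and uncouplers had 3 higher and 2 lower of 10, with the carrier Slc25a27 at -3.68 ± 0.80, Ucp2 at 2.93 ± 0.47 and Vdac3 at -1.31 ± 0.23.

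Several members were measured by more than 1 probe, and some of those probes lie on the strand opposite to the RefSeq probes of the same gene, by the coordinates in the files. Such probes were found for 7 members, 8 probes in all, and 6 of them were well above background on all 14 arrays. The Ndufc2 pair is shown because its probes share 21 bases as reverse complements (capitals) and gave different results.
Ndufc2 probe on the RefSeq strand, chr1:154641288-154641951 of rn4, plus strand: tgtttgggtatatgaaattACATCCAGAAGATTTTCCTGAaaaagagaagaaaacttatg
Ndufc2 probe on the opposite strand, chr1:154641307-154641970 of rn4, minus strand: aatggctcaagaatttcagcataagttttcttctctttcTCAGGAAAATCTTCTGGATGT

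The RefSeq-strand probe of Cox7c, a small complex IV subunit, had levels of -0.41, -0.39 and -0.24 in the blastocyst lines, -0.31, -0.54 and -0.51 in the bone marrow lines and -0.85 in RClone-2, and its difference of 0.11 between origins did not pass. The opposite-strand probe had levels of -5.21, -4.88 and -5.57, then -3.30, -3.13 and -3.02, then -3.18. Its difference between origins was -2.07 (adjusted p = 0.00488 in a limma fit of single probes), and its blastocyst lines lay below all others.

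Opposite-strand probes of Cox5a (-1.15), Ndufb3 (-0.99), Ndufc2 (-1.18) and Ndufs8 (-0.92) also gave a lower difference than the RefSeq-strand probes, which gave -0.64 for Cox5a, -0.48 for Ndufb3, -0.49 and -0.42 for Ndufc2, and -0.21 and -0.34 for Ndufs8. For Cox8b, a muscle form, the probe on the RefSeq strand was above background on 0 of 14 arrays. The level reported for Cox8b came from an opposite-strand probe, with -5.45, -5.63 and -5.78 in the blastocyst lines, -4.79, -5.38 and -5.17 in the bone marrow lines and -5.00 in RClone-2, so it is no measure of the Cox8b messenger RNA.

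**Figure D5:**
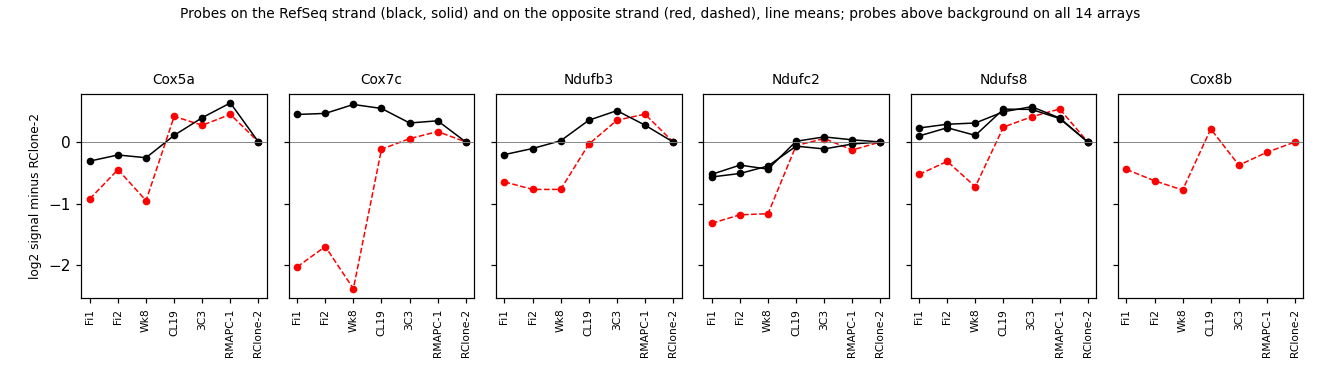
Line means of log2 signal minus the RClone-2 value for probes of 6 members that were above background on all 14 arrays, with RefSeq-strand probes as solid black lines and opposite-strand probes as dashed red lines. The dashed lines run lower in the 3 blastocyst lines than in the bone marrow lines, most of all for Cox7c, and Cox8b has only an opposite-strand probe.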

How the data were processed

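Total RNA of 7 rat lines, with 10 spiked-in transcripts, was labelled with Cy3, per the labels' protocols. Per the file headers, the authors extracted spots with Agilent Feature Extraction 10.7.3.1, on an array design annotated to rn4. The deposited scanner files give the processed signal, mean signal and background of each spot as an intensity, and flags as 0 or 1. The deposited series table holds log2 values, and each column, once sorted, matched the sorted log2 processed signals of its array. It was not used for genes, as its row names could not be matched to spots.

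Here the processed signal was put on the log2 scale and the array's 75th percentile over non-control spots was subtracted. Flagged outlier spots were left out, and spots of a probe were averaged. The brightest probe stood for each gene name in the files, and a name was tested if 1 or more lines had that probe well above background on arrays A and B. Arrays A and B were averaged to 7 line means, and limma 3.58.1 (R 4.3.3) was run on these with 4 residual degrees of freedom, eBayes, two-sided tests and Benjamini-Hochberg adjustment over 24856 names. Contrasts were blastocyst minus bone marrow, and the mean of both minus RClone-2. A group with no array above background was given a bound, set at the dimmest signal that counted as above background. Named genes were the isoform genes, up to 6 members in each direction per comparison, members whose probes disagreed, and up to 4 genes of each list. Further members were named after their values were seen, to describe each complex. Current names came from a RefSeq table (GRCr8, names only), in which all 78 members matched, 71 by accession. The members and lists were chosen with earlier results of these data known. The alternatives were other background correction and scaling, filters, probe choice, block and covariate terms, single arrays of a line, and leaving out each line. The fit was tested on simulated data. Figures were drawn with matplotlib 3.10.9. Some items are not reported here.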

Additional observations from a re-analysis of the deposited data

Results flagged for a closer look

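Of 114 groups of 6 arrays examined (the named members and the median of each complex, in the blastocyst and in the bone marrow arrays), 7 held an array far from the others by Dixon's criterion, where chance gives about 1 in 20, close to what was seen. The 6 arrays of a group are 3 lines measured in duplicate and so not independent. In the bone marrow arrays these were Sdhc on array A of 3C3 (3.97, the others 3.57 to 3.72), Uqcrfs1 on array B of RMAPC-1 (5.08, the others 5.45 to 5.58), Cox7c on array B of CL19 (-0.17, the others -0.61 to -0.45) and Cox8c on array A of RMAPC-1 (-6.46, the others -8.65 to -8.01). The median of complex III on array B of RMAPC-1 was 4.76, the others lying at 5.01 to 5.14. In the blastocyst arrays these were Uqcrc2 on array A of Wk8 (4.45, the others 4.12 to 4.21) and Cox4nb on array A of Fi2 (3.99, the others 3.75 to 3.82).

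For 18 members every blastocyst line lay below RClone-2 and every bone marrow line above it, so that the groups moved in opposite directions from the same control line. Since this order already sets the origins apart, the 13 of the 18 that passed between origins are no separate support. Of the probes on the strand opposite to the RefSeq probes, which the comparisons do not use except for Cox8b, 6 were well above background on all 14 arrays.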

How the results depend on the processing

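Counts of members higher and lower in the blastocyst lines were 1 and 37. They became 0 and 6 with normexp, 2 and 6 with quantile normalization, 9 and 0 unscaled, 1 and 13 with the percentile over detected probes and 1 and 9 with median centring. They were 0 and 44 with probes above background on all arrays, 2 and 49 with the array letter as a replicate block, 0 and 12 with slide as a block, 0 and 0 with a term for the slide pair, 0 and 8 with sex as a covariate, 0 and 13 on A arrays, 0 and 2 on B arrays, 0 and 0 on slides 1 and 3, and 0 and 13 without array A of RMAPC-1. Leaving out each line gave 0 to 1 higher and 4 to 37 lower. Shares of all genes higher and lower were 1.99% and 3.13% with normexp and 8.88% and 14.8% with quantile normalization. Unscaled they were 23.7% and 4.98%, and 10.2% and 14.1% with the percentile over detected probes. With median centring 9.74% were higher and 14.3% lower, and with probes above background on all arrays 9.4% and 30.8%. The array letter gave 11.1% and 30.2%, slide as a block 3.06% and 9.83%, and sex 4.58% and 13.5%. A arrays gave 4.29% and 12.3%, B arrays 1.85% and 5.02%, and leaving out array A of RMAPC-1 4.88% and 14.2%. Apart from the scalings and left-out lines described above, members were lower less often than all genes with sex (10.4%) and on B arrays (2.56%).

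Unscaled signals turned the median difference of the members to 0.11 and those of Ndufa13 (0.064), Ndufb3 (0.0040), Uqcrb (0.060), Uqcrc2 (0.096), Uqcrh (0.065), Cox6a2 (0.019), Atp5g2 (0.015), Cox7a2l (0.13) and Cox7a2 (0.38). An unscaled array carries differences in overall brightness, and the 75th percentile was higher on every blastocyst array than on every other.

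Counts against RClone-2 were 4 and 5. They became 2 and 1 with normexp, 8 and 4 with quantile normalization, 12 and 1 unscaled, 2 and 7 with median centring, 1 and 20 with spike-in scaling, 8 and 10 with the array letter as a replicate block, 1 and 1 with the slide-pair term, 2 and 2 with sex, 3 and 1 on A arrays, 1 and 1 on B arrays, 2 and 1 on slides 2 and 4, and 2 and 3 without array A of RMAPC-1. Leaving out each line gave 2 to 3 higher and 1 to 6 lower. In each of these settings a smaller share of members than of all genes was called in each direction. The cause of the changes in count was not tested. The slide, array and strand subsets were chosen after seeing the data. Signals near background limit Uqcrq, Cox6b2 and Cox8c.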

Other observations

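On the whole array, 92 probes lay on the strand opposite to the RefSeq probes of their gene. For 5 members and 28 other genes, both a RefSeq-strand and an opposite-strand probe were above background on all 14 arrays. In the members the median difference between blastocyst and bone marrow lines was -1.15 for the opposite strand and -0.45 for the RefSeq strand, and the opposite strand was the lower in 5 of 5. In the other genes the medians were -0.48 and -0.18, and the opposite strand was the lower in 19 of 28. This was examined after the data were seen and was not tested. Without the opposite-strand probes, 37 members were lower and 1 higher between origins, as with them.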
